A study of Mus musculus with 6 samples.

Results

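The RNase P and RNase MRP genes are 10 genes measured by 10 probe sets, out of 19938 genes and 35556 probe sets on the array. They were chosen by symbol as the RNA subunits Rpph1 and Rmrp and the protein subunits Pop1, Pop4, Pop5, Pop7, Rpp14, Rpp30, Rpp38 and Rpp40. The set was brought forward because of Rmrp. It was among 11 genes (0.0552% of all genes) with an unadjusted p under 0.05 and a difference of at least 1 log2 unit between diabetic and normal samples. All comparisons of these genes between the groups are therefore given as descriptions. Rmrp, at a difference of 1.52, lies inside that selection, and Rpph1, the nearest other member at 0.68, lies outside it.

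Keratinocytes leading the migrating epithelium were taken by laser capture from mouse skin wounds harvested 3 days after wounding, pooled over the sections of a sample, and profiled on whole-transcript arrays after amplification from picogram amounts of RNA. Diabetic mice (3 arrays) were given a diet high in fat and fructose for 16 weeks from 8 weeks of age, and normal mice (3 arrays) were given a control diet for as long, so diabetes here is a diet model in adult animals. The sample titles call each array a biological replicate. The sources used here name no strain or sex and do not state that each array is a separate mouse. The spread between arrays may therefore be partly technical. Each value is a log2 signal of a probe set, and a difference is the diabetic mean minus the normal mean with its standard error (SE) from limma.

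RNase P is the ribonucleoprotein that cuts the 5′ leader from precursor transfer RNAs, and RNase MRP is its relative, known for cleaving precursor ribosomal RNA in the nucleolus. The RNA subunit carries out catalysis in both, Rpph1 (H1 RNA) in RNase P and Rmrp in RNase MRP, and most protein subunits are shared between the particles. RMRP is known as the gene mutated in human cartilage-hair hypoplasia, a disorder of the skeleton, hair and immune cells. RNA polymerase III makes both RNAs from promoters that lie upstream of the transcribed sequence, with a proximal sequence element (PSE) bound by the SNAPc complex and, further upstream, an octamer bound by Oct-1.

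Rpph1 lies on chromosome 14 at 50807447 to 50807771 and Rmrp on chromosome 4 at 43492785 to 43493059 (GRCm38.p6), and each faces a protein-coding gene across a short intergenic stretch. The gap is 125 bases between Rpph1 and Parp2, which encodes a poly(ADP-ribose) polymerase of DNA repair, and 280 bases between Rmrp and Ccdc107. The RefSeq promoter windows of those neighbours therefore hold sequence upstream of the RNA genes, and they are printed here, reverse complemented to read toward the RNA, because these are the control regions of the 2 members with a clear signal. Capitals mark matches to the octamer ATGCAAAT (or its reverse complement) and to ACCNTAA, a core like that of the PSE.
Rpph1 upstream (chr14:50807666-50807965, minus strand): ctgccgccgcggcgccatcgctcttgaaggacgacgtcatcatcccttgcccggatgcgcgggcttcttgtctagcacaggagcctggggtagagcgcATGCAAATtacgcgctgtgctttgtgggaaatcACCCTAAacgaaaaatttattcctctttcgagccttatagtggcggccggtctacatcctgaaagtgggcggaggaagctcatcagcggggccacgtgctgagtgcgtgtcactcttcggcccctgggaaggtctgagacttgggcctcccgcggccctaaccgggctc
Rmrp upstream (chr4:43493115-43493414, minus strand): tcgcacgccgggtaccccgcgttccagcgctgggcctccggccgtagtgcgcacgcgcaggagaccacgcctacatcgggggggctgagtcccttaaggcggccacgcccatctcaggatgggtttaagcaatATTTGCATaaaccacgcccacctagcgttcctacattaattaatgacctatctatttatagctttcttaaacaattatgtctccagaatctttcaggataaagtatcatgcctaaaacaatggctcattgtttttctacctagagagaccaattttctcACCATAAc
In the Rpph1 window the last 106 bases are those of the RNA itself. The Rmrp window stops short of its RNA, with the nearest 55 bases not shown. The ACCNTAA match ran from 63 to 57 bases upstream of the first base of the RNA in both genes, read on the strand of the RNA, as ACCCTAA for Rpph1 and ACCATAA for Rmrp. The octamer lay 96 to 89 bases upstream of Rpph1 on the strand of the RNA and 222 to 215 bases upstream of Rmrp on the opposite strand. The matches do not overlap one another. Among 32851 RefSeq promoter windows of the same length, searched on both strands, 1.74% held the octamer, 6.98% held ACCNTAA and 0.146% held both. A match describes letters only, and binding at these places was not measured.

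**Figure D1:**
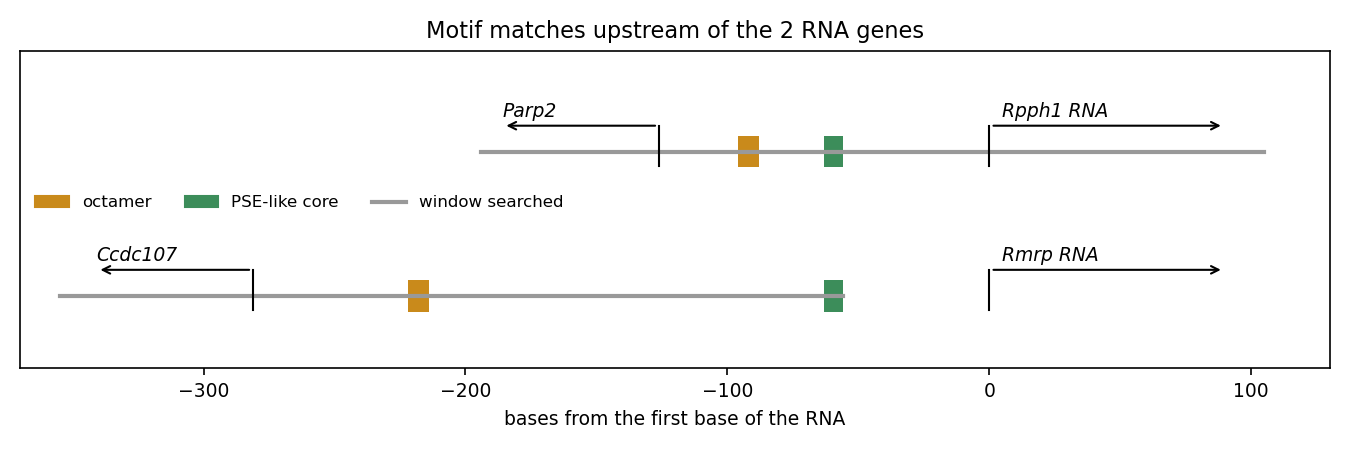
Positions of the motif matches (coloured blocks) relative to the first base of each RNA, in bases, for Rpph1 with its neighbour Parp2 (upper line) and Rmrp with Ccdc107 (lower line); arrows show the direction of each gene and the grey line the window searched. The PSE-like core sits at 63 to 57 bases upstream in both genes, while the octamer is nearer to the RNA start in Rpph1 than in Rmrp.

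Rmrp signal was high on 1 diabetic array, intermediate on another and level with the normal samples on the third. Rmrp (probe set 10512487) was at 6.39, 4.26 and 3.06 in diabetic replicates 1, 2 and 3, against 2.99, 3.15 and 3.02 in normal replicates 1, 2 and 3. Diabetic replicate 3 lay below normal replicate 2, so the groups overlapped. The means were 4.57 ± 1.69 in diabetic and 3.05 ± 0.08 in normal samples (SD, n = 3 each), a difference of 1.52 (SE 0.58), or 2.86-fold on the linear scale. That SE pools both groups and is moderated by limma over all genes, although the SDs of the groups differ widely. In a limma fit with each of 35556 probe sets as a feature, the SE was 0.75 and the unadjusted p 0.082. In that fit Rmrp did not reach the unadjusted p under 0.05 used to bring the set forward. In captured tissue, a different share of cells of a type and a different amount of RNA per cell cannot be told apart.

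The spread of Rmrp differed between the groups. Among diabetic arrays, 7 of 19938 genes had a larger SD than Rmrp, whereas among normal arrays 15327 genes did. Diabetic replicate 1 exceeded the mean of diabetic replicates 2 and 3 by 2.73, and 6 genes had a larger excess on that array. Without diabetic replicate 1 the Rmrp difference was 0.61, and without diabetic replicate 3 it was 2.27. Without any 1 normal array it lay between 1.48 and 1.56.

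Rpph1 was bright in both groups and its values overlapped. Rpph1 (probe set 10419469) was at 8.84, 7.95 and 7.49 in diabetic replicates 1, 2 and 3, against 7.11, 8.38 and 6.75 in normal replicates 1, 2 and 3. Normal replicate 2 exceeded 2 of the 3 diabetic arrays. The means were 8.09 ± 0.68 in diabetic and 7.42 ± 0.85 in normal samples (SD, n = 3 each), a difference of 0.68 (SE 0.40, 95% confidence interval -0.20 to 1.56). The spread was large in both groups, with 36 genes having a larger SD among diabetic arrays and 13 among normal arrays. Its difference was 1.16 without normal replicate 2, 0.35 without normal replicate 3 and 0.31 without diabetic replicate 1.

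**Figure D2:**
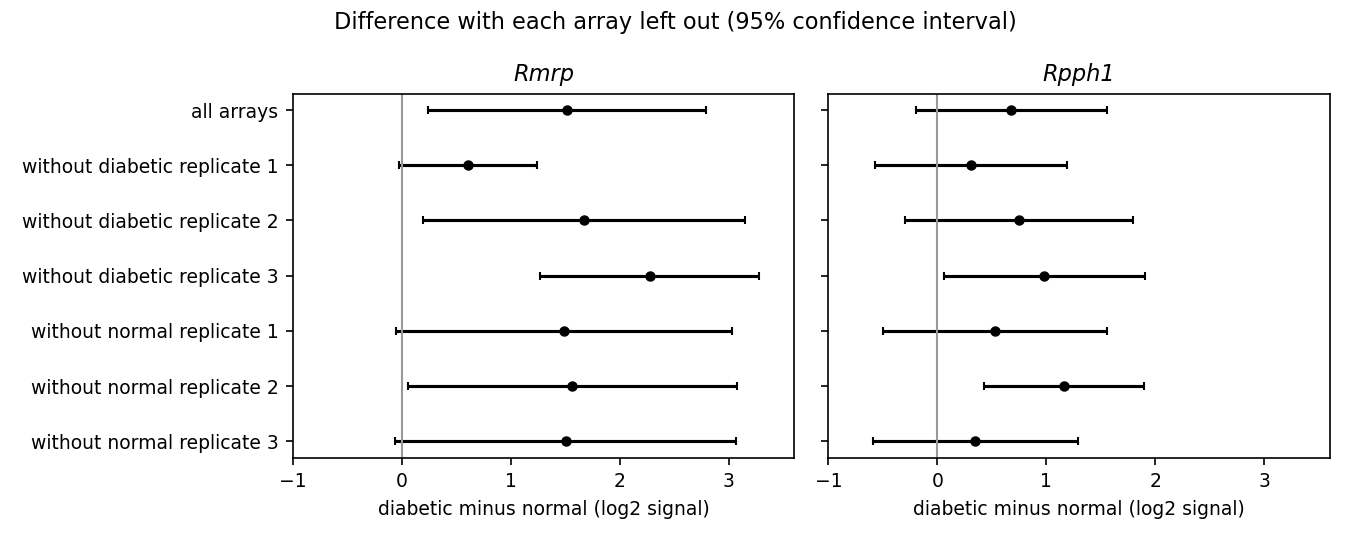
Differences for Rmrp (left) and Rpph1 (right), diabetic minus normal in log2 signal, over all arrays and with each array left out in turn; points are estimates and bars 95% confidence intervals from limma. The bars rest on SEs that pool both groups and are moderated over all genes. The Rmrp difference is 0.61 without diabetic replicate 1, and Rpph1 ranges from 0.31 to 1.16.

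The genes facing the RNA genes, looked at after the values of the RNAs were seen, stayed close together on all arrays. Parp2 was at 1.53, 1.72 and 1.60 in diabetic and 1.75, 1.54 and 1.72 in normal replicates 1, 2 and 3, a difference of -0.05 (SE 0.11). Ccdc107 was at 2.36, 2.41 and 2.24 in diabetic and 2.15, 2.28 and 2.29 in normal replicates 1, 2 and 3, a difference of 0.10 (SE 0.12). Ccdc107 exceeded the background limit on all 6 arrays and Parp2 on none, so the Parp2 values are no more than a bound. That limit is the 95th percentile, on each array, of 1216 olfactory, vomeronasal and taste receptor genes, taken as largely silent in skin. It was 1.98 and 2.01 on diabetic replicates 1 and 2 and between 2.11 and 2.13 on the other arrays. A count of arrays above the limit thus depends on the array as well as on the signal.

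The protein subunits were dim. Of the 8 genes, 7 were at or below the limit on every array, as were 51.7% of all genes. The exception, Pop7, exceeded it on normal replicate 1 alone. Only Rpph1 and Rmrp among the 10 members exceeded it on all 6 arrays, as did 17.2% of all genes. Differences between signals at the limit describe array signal, can understate changes, and do not bound differences in RNA.

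In 3 of the 8 protein genes the groups did not overlap, where 10.7% of all genes did not. Pop1, the largest protein of both particles, was at 1.80, 1.66 and 1.67 in diabetic and 1.39, 1.56 and 1.41 in normal replicates 1, 2 and 3, a difference of 0.26 (SE 0.11). All 3 diabetic arrays lay above all 3 normal arrays. Pop7, known in human cells as Rpp20, the partner of Rpp25 on the RNA, was at 1.83, 1.99 and 1.82 in diabetic and 2.13, 2.08 and 2.05 in normal replicates 1, 2 and 3, a difference of -0.21 (SE 0.11). Rpp30, a core subunit of both particles, was at 1.37, 1.43 and 1.40 in diabetic and 1.52, 1.57 and 1.53 in normal replicates 1, 2 and 3, a difference of -0.13 (SE 0.09). For Pop7 and Rpp30 all diabetic arrays lay below all normal arrays, by a small margin.

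The other 5 protein genes overlapped between the groups. Rpp14 differed by 0.11 (SE 0.11), with diabetic arrays between 1.75 and 1.89 and normal arrays between 1.64 and 1.79. Pop4, known in human cells as Rpp29 and as the partner of Rpp21, differed by 0.01 (SE 0.13). Pop5, a core subunit related to Rpp14, differed by -0.01 (SE 0.13), and its lowest value, 1.16, was on diabetic replicate 1. Rpp38, which binds kink-turn RNA in the human particle, differed by 0.03 (SE 0.11). Rpp40 differed by -0.08 (SE 0.10), with diabetic arrays between 1.25 and 1.29 and normal arrays between 1.16 and 1.47. Over these 5 genes, the bound of a 95% confidence interval farthest from 0 was 0.34, for Rpp14.

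**Figure D3:**
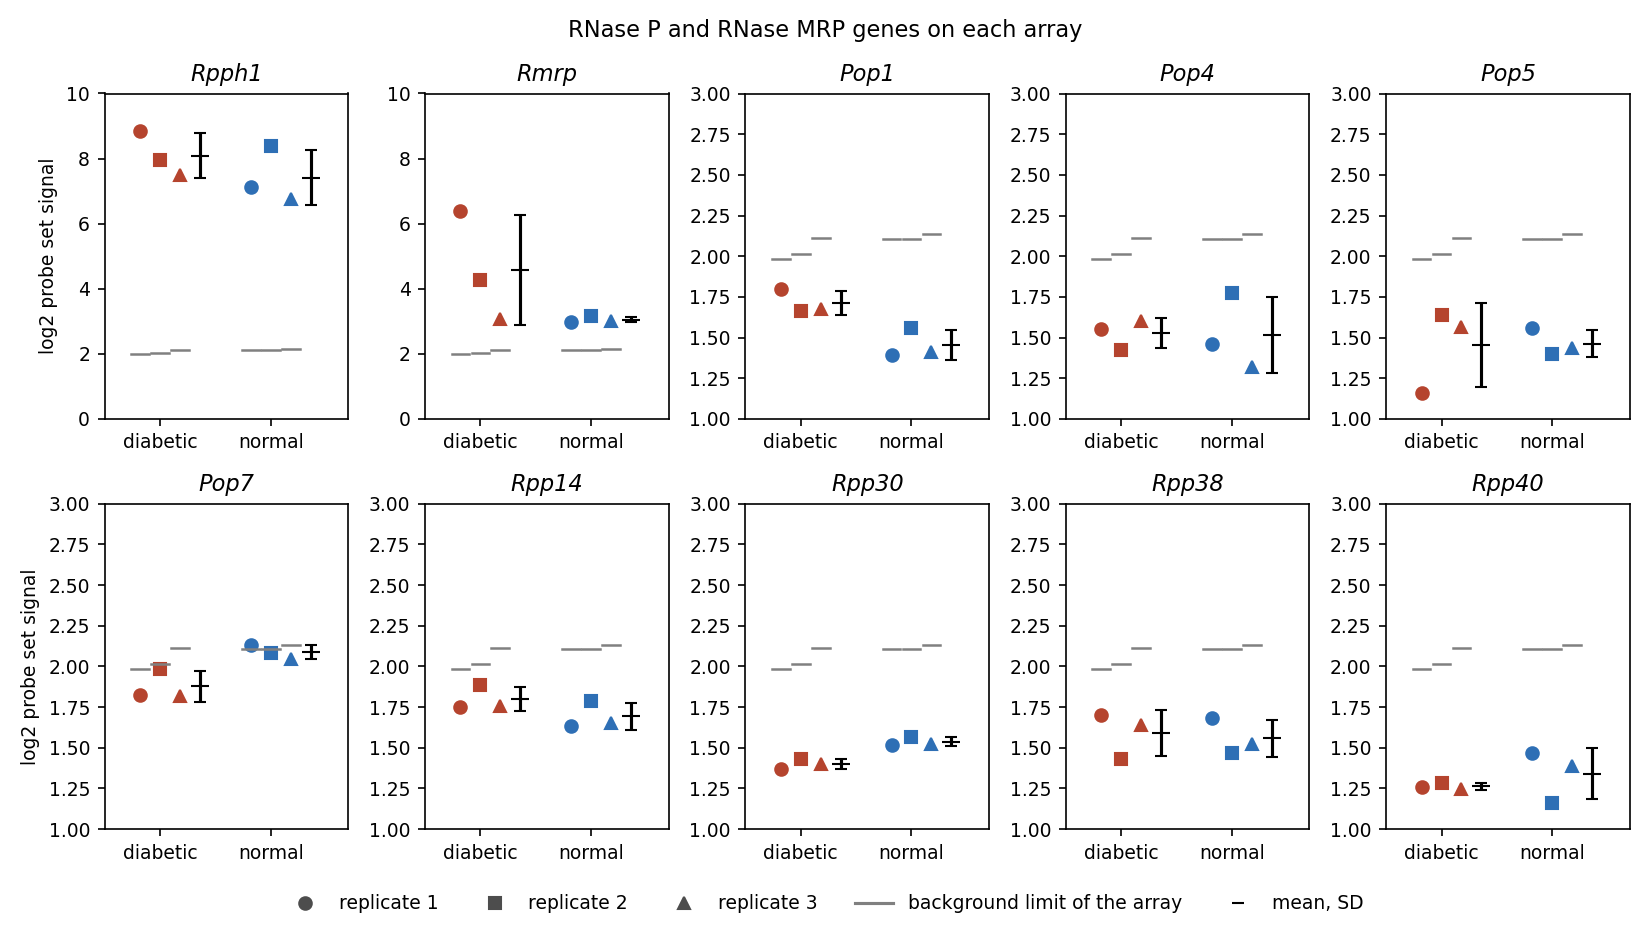
Log2 probe set signal of the 10 genes on each array, diabetic samples left and normal samples right in each panel, with mean and SD (n = 3) beside the points and the background limit of each array as a grey line. The RNA genes have an axis from 0 to 10 and the protein genes from 1 to 3. Rpph1 and Rmrp exceed the limit throughout, Rmrp is highest on diabetic replicates 1 and 2, and the protein genes lie at or under the limit except Pop7 on normal replicate 1.

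With limma over all 19938 genes and Benjamini-Hochberg adjustment, 0 of the 10 members had an adjusted p under 0.05, and the same was true of 0% of all genes. The smallest adjusted p among the members was 0.839. At an unadjusted p under 0.05 there were 2 members, Rmrp and Pop1, and 5.56% of all genes. That count was 0 without diabetic replicate 1, normal replicate 1 or normal replicate 3, and 3 without diabetic replicate 3 or normal replicate 2. With every probe set as a feature it was 1 (Pop1), since Rmrp then had an unadjusted p of 0.082 in limma. The selection of the set used this contrast, and nothing is read from that count. Of the 10 genes 6 were higher and 4 lower in diabetic samples, with a median difference of 0.02, while 48.7% of all genes were higher and the median over all genes was -0.0039. The 8 protein genes split into 4 higher and 4 lower, with a median of 0.0012 and a range from -0.21 to 0.26.

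**Figure D4:**
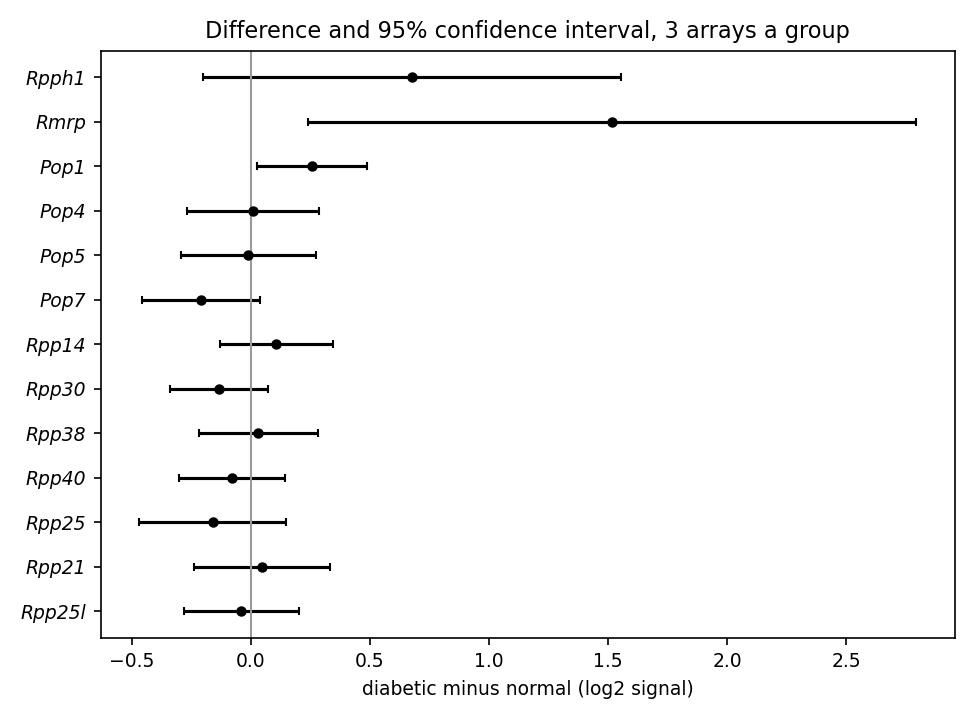
Difference between diabetic and normal samples in log2 signal (points) with limma's 95% confidence interval (bars) for the 10 genes and for the 3 further subunit genes Rpp25, Rpp21 and Rpp25l, 3 arrays per group. The RNA genes have the largest differences and the widest intervals, and the protein genes lie between -0.21 and 0.26.

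Subunits outside the set also had small differences in array signal. Rpp21, the partner of Pop4, exceeded the background limit on all 6 arrays, at 2.46, 2.71 and 2.63 in diabetic and 2.47, 2.64 and 2.55 in normal replicates 1, 2 and 3, a difference of 0.05 (SE 0.13). Rpp25 differed by -0.16 (SE 0.14), with normal replicate 3 at 2.24 and the other 5 arrays between 1.69 and 1.84. Rpp25l, its paralogue, differed by -0.04 (SE 0.11). Rpp25l was under the background limit on every array, and Rpp25 exceeded it on normal replicate 3 alone. The mitochondrial RNase P, which in mammals is made of proteins alone, has the subunit genes Trmt10c (-0.01, SE 0.16), Hsd17b10 (0.16, SE 0.15) and Prorp (0.05, SE 0.12), all with overlapping groups. Of these 3 genes 0 exceeded the limit on all arrays.

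Other RNAs made by RNA polymerase III did not share 1 pattern with Rmrp and Rpph1. Several of these RNAs have many similar copies in the mouse genome, so probe sets for such RNAs may read more than the named gene. The 7SK RNA gene Rn7sk was at 8.02, 7.78 and 6.12 in diabetic and 4.94, 6.15 and 4.66 in normal replicates 1, 2 and 3, a difference of 2.06 (SE 0.47). Its second probe set differed by 1.60 and was highest on diabetic replicate 1 as well. The Y RNA gene Rny1 was at 6.71, 2.76 and 5.16 in diabetic and 2.37, 3.49 and 2.76 in normal replicates 1, 2 and 3, a difference of 2.01 (SE 0.71). Diabetic replicate 2, intermediate for Rmrp, was among the low arrays for Rny1.

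The remaining RNAs of this list differed less or the other way. Rny3 differed by 0.19 (SE 0.48), the vault RNA gene Vaultrc5 by 0.10 (SE 0.66) and the 5S ribosomal RNA gene n-R5s136 by -0.08 (SE 0.38). The U6 RNA gene Rnu6 was at 0.88, 0.99 and 0.89 in diabetic and 1.39, 2.23 and 1.47 in normal replicates 1, 2 and 3, a difference of -0.78 (SE 0.18). All its diabetic values lay below all its normal values, and it exceeded the background limit only on normal replicate 2. Diabetic replicate 1 held the highest value for 5 of the 8 RNAs (Rmrp, Rpph1, Rn7sk, Rny1 and Rny3), and normal replicate 3 the lowest for 4. Of the 6 RNAs besides Rmrp and Rpph1, 0 passed the adjusted threshold in limma. At an unadjusted p under 0.05 there were 3 (2 higher, 1 lower), where 5.56% of all genes were (2.64% higher, 2.92% lower). The 2 higher RNAs, Rn7sk and Rny1, lie inside the same selection of 11 genes as Rmrp. The list was chosen with earlier results of these data known, so nothing is read from this count.

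**Figure D5:**
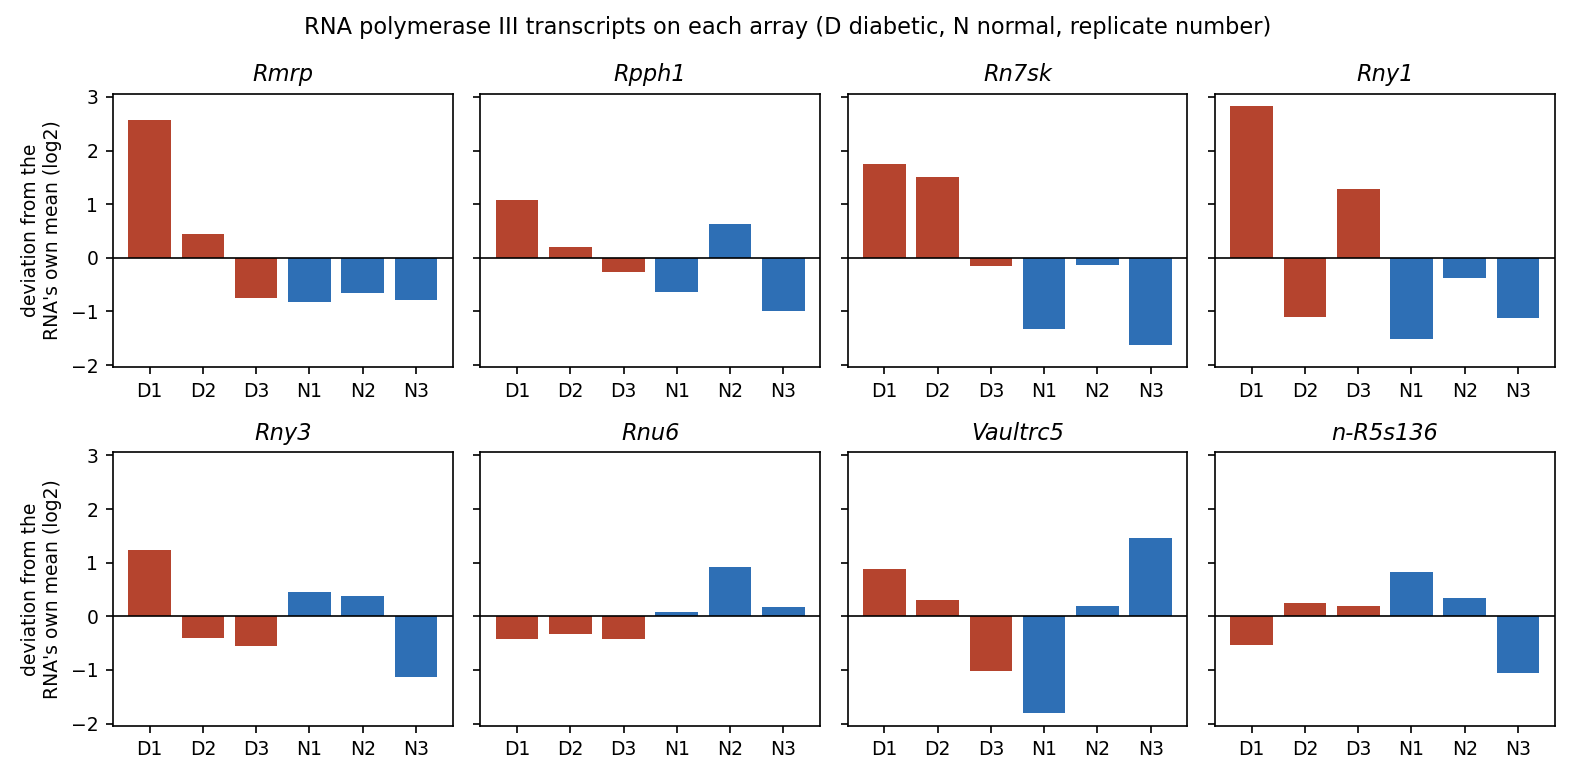
Deviation of 8 RNA polymerase III transcripts from their own mean over the 6 arrays, in log2 units, for diabetic arrays (D1 to D3) left and normal arrays (N1 to N3) right. Rmrp deviates by 2.58 on D1 and by at most 0.82 in size on the other arrays, and D1 is the highest array for Rmrp, Rpph1, Rn7sk, Rny1 and Rny3.

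The genes whose array pattern was most like that of Rmrp were picked out as a description. Likeness was the root mean square distance over the 6 arrays between deviations from each gene's own mean, in log2 units, and the deviations of Rmrp itself had a root mean square of 1.24. Since Rmrp deviates most on diabetic replicate 1, genes near it by this measure are high there by construction. The nearest were Naca (0.35), a subunit of the nascent polypeptide-associated complex, the nuclear RNA Malat1 (0.50), the snoRNA host gene Gas5 (0.52), the GTPase gene Rab2a (0.56) and the cytochrome oxidase gene Cox5b (0.58). Naca was at 5.18, 2.86 and 2.65 in diabetic and 2.24, 2.27 and 2.50 in normal replicates 1, 2 and 3. On diabetic replicate 1 the others stood at 5.75 (Malat1), 4.71 (Gas5), 3.92 (Rab2a) and 5.37 (Cox5b), each its highest value. Rpph1 ranked 20 in likeness to Rmrp, at a distance of 0.84. In the other direction Rmrp ranked 18382 in likeness to Rpph1, and that distance exceeds the root mean square of Rpph1 itself, 0.72. The measure depends on the size of deviations, so a gene with no deviation at all would rank nearer to Rpph1 than Rmrp does. That rank by itself therefore does not show whether the order of the arrays differs. Both RNAs were highest on diabetic replicate 1 and fell through diabetic replicates 2 and 3. The order of the arrays was not the same throughout. Normal replicate 2 exceeded diabetic replicate 2 for Rpph1 but not for Rmrp, and the lowest array was normal replicate 3 for Rpph1 and normal replicate 1 for Rmrp.

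Rpph1 had other neighbours by the same measure. They were Baiap2l1 (0.27), the ribosomal protein gene Rps18 (0.34), Tuft1 (0.35), Nudc (0.39) and the growth factor gene Vegfd (0.40), all nearer to it than Rmrp. Baiap2l1, an I-BAR adaptor of actin-rich protrusions, was at 10.37, 9.56 and 9.09 in diabetic and 8.08, 9.38 and 7.99 in normal replicates 1, 2 and 3. These likenesses rest on 6 arrays that also differ in group, and they are descriptions.

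The machinery that makes and uses these RNAs was described with 3 lists. All 3 were chosen with earlier results of these data known, so nothing is read from their counts. Of 32 genes of RNA polymerase III and its factors 28 were measured, and 0 passed the adjusted threshold in limma. At an unadjusted p under 0.05 there were 2 higher and 0 lower, where 2.64% and 2.92% of all genes were, and the median difference was 0.03. Polr3d, a polymerase III subunit, was at 2.89, 2.79 and 3.04 in diabetic and 2.05, 2.54 and 2.57 in normal replicates 1, 2 and 3, a difference of 0.52 (SE 0.16). Polr3a, which encodes the largest subunit, differed by 0.27 (SE 0.12), Crcp by 0.30 (SE 0.15) and Polr1c, shared with polymerase I, by 0.30 (SE 0.15). For Polr3d, Polr3a and Crcp all diabetic arrays lay above all normal arrays, and 0 of the 28 genes had the opposite pattern, where 5.02% of all genes lay wholly higher and 5.66% wholly lower. Polr3a exceeded the background limit on 1 diabetic array, replicate 2, by a narrow margin (2.016 against 2.014), and on 0 normal arrays.

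Transfer RNA maturation genes act with RNase P on the same substrates. Of 17 measured genes (19 listed) 0 had an unadjusted p under 0.05 in limma and 0 passed the adjusted threshold, with 7 higher, 10 lower and a median difference of -0.02. Of all genes 5.56% had such an unadjusted p, a share near 1 gene in 17. The kinase gene Clp1 differed by -0.28 (SE 0.15), the methyltransferase gene Trmt61a by 0.20 (SE 0.16) and Elac1, related to the enzyme that trims the 3′ end, by 0.19 (SE 0.14). Trnt1, which adds the CCA end, differed by -0.11 (SE 0.10), with diabetic arrays between 1.51 and 1.53 and normal arrays between 1.60 and 1.65, and it was the 1 gene of this list whose groups did not overlap (10.7% of all genes). Trnt1 and Clp1 were under the background limit on all 6 arrays, and Elac1 and Trmt61a on all normal arrays. The limit differs between arrays, and Elac1 at 2.02 was above it on diabetic replicate 1 (1.98) and under it on normal replicate 2 (2.11).

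Ribosomal RNA processing is the pathway RNase MRP belongs to. Of 31 measured genes 0 passed the adjusted threshold in limma, while 4 had an unadjusted p under 0.05 (3 higher, 1 lower), as had 5.56% of all genes (2.64% higher, 2.92% lower). The median difference was 0.05. Nop56, a core protein of box C/D snoRNPs, was at 3.16, 2.03 and 2.20 in diabetic and 1.43, 1.54 and 1.76 in normal replicates 1, 2 and 3, a difference of 0.89 (SE 0.24). All diabetic arrays lay above all normal arrays, and diabetic replicate 1 was the highest. Fbl, the fibrillarin methyltransferase of the same particles, was at 3.59, 3.92 and 3.81 in diabetic and 3.15, 3.31 and 3.15 in normal replicates 1, 2 and 3, a difference of 0.56 (SE 0.15). Pes1, of the complex that matures the large subunit, differed by 0.34 (SE 0.12) and its partner Wdr12 by -0.30 (SE 0.14). Every normal value of Nop56 and Pes1 lay under the background limit, so their differences do not bound differences in RNA. Their diabetic values all exceeded it, Pes1 on diabetic replicate 2 by a narrow margin. Wdr12 exceeded it on normal replicate 1 alone, whereas Fbl did so throughout. Fbl and Wdr12 are each given by the brighter of 2 probe sets. In this list 6 genes lay wholly higher and 2 wholly lower in diabetic samples, where 5.02% and 5.66% of all genes did. As with the other lists, it was chosen with earlier results of these data known, so nothing is read from these counts.

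Markers of the captured cells and of other cells were read on the same arrays. Cdh1, the E-cadherin gene used to locate the cells, was under the background limit on every array. Of 12 keratinocyte markers 2 exceeded it on all arrays, a share near the 17.2% of all genes that did. Of 9 skeletal muscle markers 6 did, of 6 fibroblast markers 3, and of the immune and endothelial markers 0. The summed log2 level of the 12 keratinocyte markers lay between 23.6 and 24.3 on diabetic and between 24.6 and 25.8 on normal arrays. For 9 skeletal muscle markers it lay between 23.7 and 25.0 on diabetic and between 22.3 and 23.3 on normal arrays, and for 6 fibroblast markers between 13.8 and 14.4 on diabetic and between 13.3 and 13.7 on normal arrays. For 10 ribosomal protein genes, listed as a reference, it lay between 35.7 and 37.5 on diabetic and between 29.5 and 32.4 on normal arrays. Whether this sum reflects RNA quality was not tested. Of those 10 genes 6 were higher and 4 lower, and the sum rests mainly on Rpl26 (difference 2.51), Rpl5 (1.74), Rps19 (0.92) and Rps18 (0.72). Rpl26 had the largest difference of all 19938 genes and Rpl5 the smallest adjusted p in limma (0.405). The list was chosen with earlier results of these data known, so nothing is read from the separation of its sums. Rpl5 and Rps18 are each given by the brightest of several probe sets (5 and 7). The ranges overlapped for 8 immune and 4 endothelial markers. In diabetic samples 4 of the 12 keratinocyte markers were higher and 8 lower. Of the skeletal muscle markers 8 were higher and 1 lower, and of the fibroblast markers 5 and 1. Of all genes 48.7% were higher. These marker lists too were chosen with earlier results of these data known, so nothing is read from the separation of their sums. The part of these differences in the Rmrp and Rpph1 values was not tested.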

How the data were processed

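The authors deposited log2 probe set signals for 6 arrays (3 diabetic, 3 normal). Per the submitters' processing notes Partek was used (version unstated); the background correction and normalization were not described in the sources used here. The log base was taken from the values, whose maximum was 13.34. Array medians lay between 1.75 and 1.80, and no scaling was added. Columns of other series numbered 0. The array's annotation gave 1 symbol for 21789 probe sets, several for 1621 and none for 12146. Symbols were updated by gene ID through RefSeq's GRCm38.p6 table, which matched 21698 of the probe sets with 1 symbol. The brightest single-gene probe set stood for each of 19938 genes, and every member had 1 probe set. Groups, from the sample titles, were the only term of a linear model fitted in R 4.3.3 with lmFit and trended eBayes (limma 3.58.1), and p-values were adjusted over all genes by Benjamini-Hochberg. The fit was tested on simulated data.

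The members and gene lists were chosen with earlier results of these data known. Named were all members, every measured gene of the further subunit, mitochondrial RNase P and polymerase III RNA lists, up to 4 genes with the smallest unadjusted p in each larger list, and the 5 genes nearest in pattern to Rmrp and to Rpph1. Marker lists are given by sums. Promoter sequences are RefSeq's (GRCm38.p6), and the strand of Rpph1 and Rmrp, which the tables do not give, is from general knowledge. The number of arrays limits precision. The closing section gives the alternatives.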

Additional observations from a re-analysis of the deposited data

How the results depend on the processing

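Of the 10 members 0 passed the adjusted threshold under each of 14 alternatives (quantile normalization, median centring, no intensity trend, array weights, the dimmer 50% of genes left out, the mean of a gene's probe sets, every probe set as a feature, the replicate block, and 6 arrays left out in turn). In the fit with the dimmer 50% of genes left out, Rpph1, Rmrp and Pop7 were the members still tested. With every probe set as a feature, the Rmrp SE was 0.75 and its unadjusted p in limma 0.082, against 0.58 and 0.024 in the main fit. Over all genes the count of calls ranged from 0 to 2 with an array left out, with 2 genes called without diabetic replicate 2 (Ifitm3 and Snord118) and 1 without diabetic replicate 3 (Rpl5), and was 0 under the other 8 alternatives. The cause was not tested. The count of members not overlapping stayed at 3 after quantile normalization. With the 99th percentile of receptor genes as the limit, 1 member (Rpph1) in place of 2 exceeded it on all arrays, since that limit is higher. Rmrp lay under it on diabetic replicate 3 (3.06 against 3.09). Across the alternatives the Rmrp difference ran from 0.61 to 2.27 and that of Rpph1 from 0.31 to 1.16, both at their extremes with 1 array left out. The sign changed in 4 alternatives each for Pop4 and Pop5 and in 2 for Rpp38, all with differences near 0. With the replicate number as a block, 0 genes and 0 members were called, and 0 of 88 genes in the related lists, as after quantile normalization. Deviations of same-numbered arrays from their group means correlated across genes at -0.018, 0.008 and 0.014, so no pairing by number was seen over all genes. This check cannot exclude a pairing, since 51.7% of all genes were at or below the background limit on every array.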
